A study of Homo sapiens with 120 samples.

Results

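The GADD45 family consists of GADD45A, GADD45B and GADD45G, 3 genes among the 19775 that the arrays represented by a probe set with a single gene symbol. They were chosen by name, and each was read from its brightest such probe set over all 120 arrays. The cells were TK6, an established human lymphoblastoid line of B cells, and their total RNA was measured on HG-U133 Plus 2 arrays from Affymetrix. The series set out to compare formaldehyde with agents that break chromosomes and agents that disturb their segregation.

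Cells received formaldehyde (FA), which links proteins to DNA, at 50, 100 or 200 µM, methyl methanesulfonate (MMS) at 80, 160 or 320 µM, or ethyl methanesulfonate (EMS) at 1, 2 or 4 mM. MMS and EMS are alkylating agents and are the clastogens of the study. The aneugens were colcemid (COL) and vincristine (VCR), which both bind tubulin, at labelled doses of 1, 2 and 4 µg/ml. Leading zeros in their sample titles may stand for a dropped decimal point, which the labels do not settle, and the doses are therefore called lowest, middle and highest. Exposure lasted 4 h or 24 h, and each chemical had its own untreated TK6 arrays at both times. Each of the 40 groups held 3 arrays, numbered by the labels as experiments 1 to 3. All results come from this 1 cell line, no group carries a genetic change named by the labels, and the p-values measure the spread between numbered experiments, whose independence as cultures is not described beyond the number.

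GADD45 proteins are small, acidic and mainly nuclear, and have no enzyme activity of their own. They act by binding partners: they can dissociate the CDK1 and cyclin B1 complex at the G2/M transition, bind PCNA and p21, and activate the kinase MAP3K4 above p38 and JNK. They have also been linked to excision repair and to active DNA demethylation. GADD45A is a textbook target of p53, GADD45B is known as a target of NF-kappaB and TGF-beta signalling, and GADD45G was first described as a cytokine response gene.

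In the RefSeq annotation of build GRCh38.p14, GADD45A lies on chromosome 1 from 67685201 to 67688334, GADD45B on chromosome 19 from 2476127 to 2478257, and GADD45G on chromosome 9 from 89605012 to 89606555. The sequences directly upstream of GADD45B and GADD45G are shown because GADD45B was well detected and moved in both directions while its paralog GADD45G was dim throughout. Each is given 5′ to 3′ on the plus strand as the 250 bases that end at the base before the annotated start, at chr19:2475877-2476126 for GADD45B and chr9:89604762-89605011 for GADD45G. Capitals mark matches, on either strand, to the CCAAT box, spelled CCAAT. They also mark the TATA box, searched as TATAAA. A further pattern in capitals is the ATF4 element, searched as TGATGNAA.
GADD45B promoter: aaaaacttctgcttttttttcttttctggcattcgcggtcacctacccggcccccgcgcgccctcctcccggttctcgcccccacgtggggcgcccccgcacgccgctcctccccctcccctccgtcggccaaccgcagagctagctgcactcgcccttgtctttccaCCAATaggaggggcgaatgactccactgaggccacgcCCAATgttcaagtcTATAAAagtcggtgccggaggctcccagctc
GADD45G promoter: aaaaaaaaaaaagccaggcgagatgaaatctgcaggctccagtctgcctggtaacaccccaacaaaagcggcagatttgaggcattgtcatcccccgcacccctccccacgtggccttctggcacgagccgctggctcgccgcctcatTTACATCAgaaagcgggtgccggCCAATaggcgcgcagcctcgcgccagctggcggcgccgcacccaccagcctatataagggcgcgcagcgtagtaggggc

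The GADD45B window held 2 CCAAT box matches, starting 82 and 45 bases before the start, and a TATA box match 31 bases before it. The GADD45G window held 1 CCAAT box match 79 bases before the start and an ATF4 element on the reverse strand 102 bases before it. The exact letters TATAAA were not in the GADD45G window, but the similar stretch tatataag, which was not searched for, lies near its end. Of 35116 human promoter windows of the same length, 32% held the CCAAT box, 10.7% the TATA box and 3.14% the ATF4 element. An NF-kappaB-like motif matched 4 times near GADD45B, with overlaps between matches and with a CCAAT box match, and 1 time near GADD45G, but 54.4% of all windows held it. Neither window held the CRE, searched as TGACGTCA (1.65% of windows), the AP-1 site, searched as TGANTCA (6.57%), or the p53 half-site (5.57%), which says only that these letters are not in these windows. The matches describe the sequence and are not shown to be used in TK6.

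The B cell identity of the arrays was checked first. All 7 measured of 8 B cell markers lay above the limit for dim genes, with an array mean of 9.97 to 11.01 on the log2 scale. The mean of T and NK cell markers was 5.99 to 6.76 over arrays; 5 of 6 passed the limit, led by NKG7 at 7.97, and CD3G did not. That of monocyte and granulocyte markers was 5.70 to 6.68; CSF1R and ITGAM passed, ITGAM reaching 8.96, and CD14 and MPO did not. Epithelial and fibroblast markers had a mean of 6.27 to 6.85; 3 of 4 passed, with KRT8 at 8.54 and COL1A1 at 8.35, and EPCAM averaged 3.61. Array medians ran from 6.13 to 6.24, the highest correlation between any pair of arrays was 0.998, and the number of arrays rather than a read depth limits precision. A gene was tested where at least 3 arrays reached 6.18, the median probe set's mean, which left 14023 genes. A gene was called at a limma adjusted p under 0.05, adjusted by Benjamini and Hochberg over all tested genes of that comparison. In these bulk samples, fewer cells of one state and less RNA per cell cannot be told apart.

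GADD45A and GADD45B were above the limit on all 120 arrays, and GADD45G on 0. GADD45A spanned 11.35 to 14.25, GADD45B 9.16 to 11.09 and GADD45G 5.38 to 6.01 on the log2 scale, and levels are not compared between genes because probe sets differ in brightness. Over the 30 comparisons of a dose with the untreated arrays of its set and time, GADD45A was higher in 21, lower in 0 and not called in 9. GADD45B was higher in 9, lower in 5 and not called in 16. Of the 14023 tested genes, 14 were called higher in at least as many comparisons as GADD45A, and the median gene was called higher in 2 and lower in 1.

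**Figure D1:**
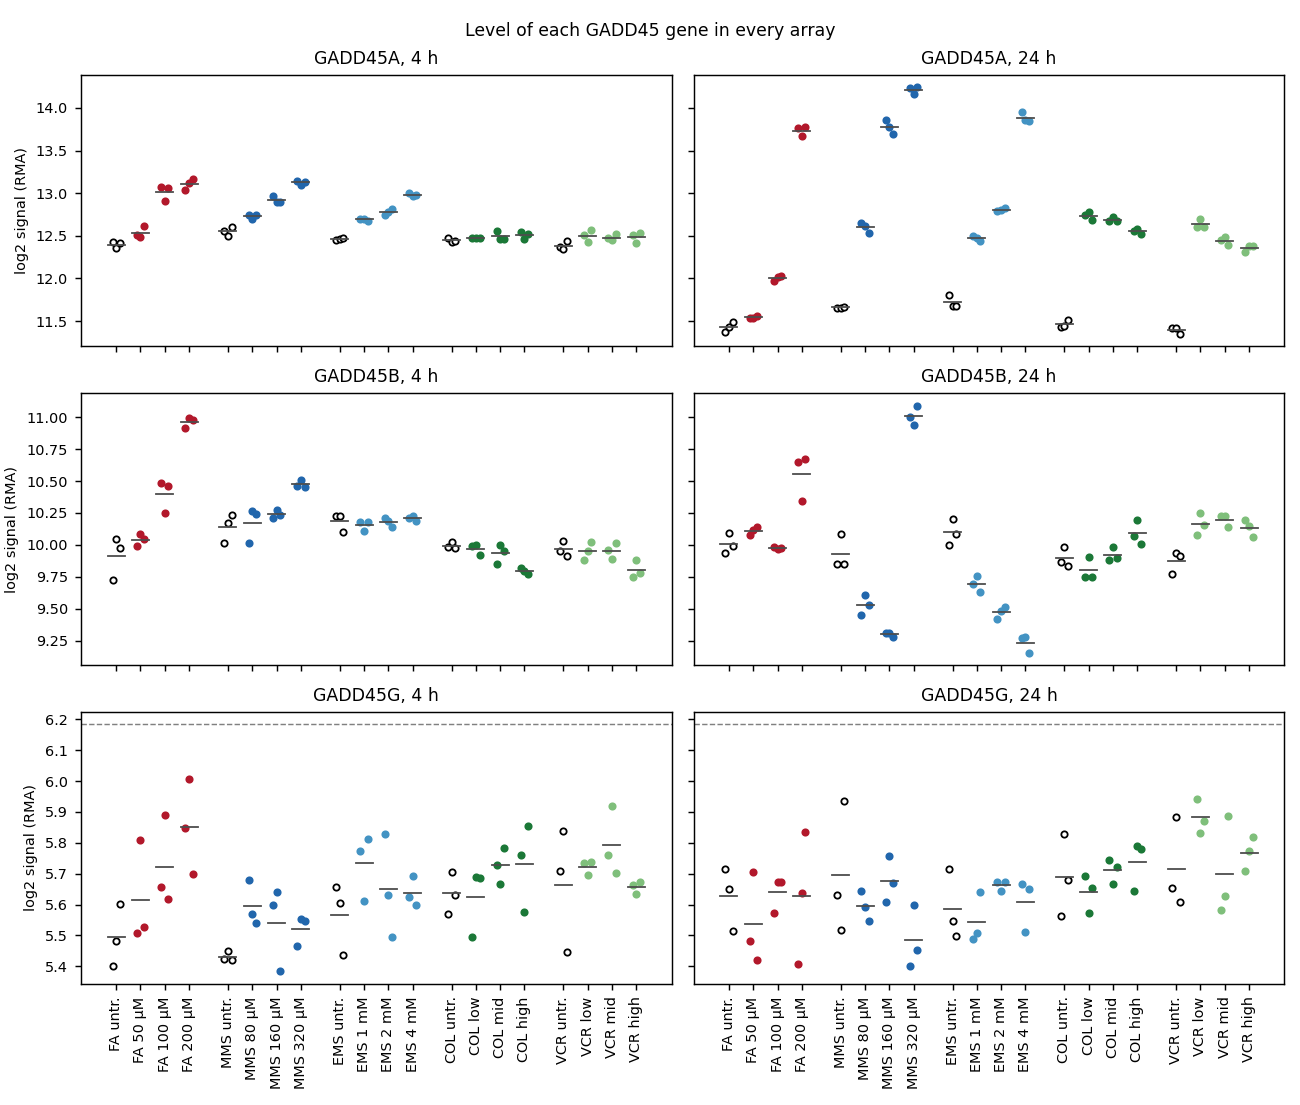
The log2 level of GADD45A, GADD45B and GADD45G on every array (y axis, RMA signal) is plotted by chemical and dose (x axis) at 4 h and 24 h. Open circles are untreated arrays, filled circles treated arrays, horizontal bars group means of 3 arrays, and the dashed line for GADD45G is the limit for dim genes at 6.18, which no array reached.

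Untreated TK6 cells held less GADD45A RNA signal at 24 h than at 4 h. Over 15 untreated arrays at each time, GADD45A had a lowest, median and highest value of 12.35, 12.44 and 12.60 at 4 h and of 11.35, 11.49 and 11.80 at 24 h. The times did not overlap, and the difference over the 5 sets was -0.92 ± 0.03 (SE) with a limma adjusted p of 4.61e-22, a 1.89-fold fall. The 3′ minus 5′ signal of ACTB, which rises as RNA is degraded, was also higher at 24 h in untreated arrays, from 0.329 to 0.540 in the colcemid set, 0.287 to 0.463 in the vincristine set and 0.373 to 0.521 in the EMS set, without overlap. In the formaldehyde and MMS sets it went from 0.443 to 0.481 and from 0.837 to 0.941, with overlap. The same measure of GAPDH was not higher at 24 h in the colcemid (0.140 to 0.135) and formaldehyde (0.213 to 0.161) sets. Its mean was higher in the MMS (0.184 to 0.222), EMS (0.088 to 0.120) and vincristine (0.104 to 0.127) sets. The part of RNA quality in the fall of GADD45A was not tested. GADD45B ran from 9.72 to 10.24 with a median of 10.02 at 4 h, and from 9.77 to 10.20 with a median of 9.94 at 24 h. These ranges overlapped, and its difference of -0.08 ± 0.04 was not called (limma adjusted p = 0.085), whereas 52.1% of tested genes were called in this comparison. GADD45G had medians of 5.57 at 4 h and 5.65 at 24 h, with overlapping ranges. Because of the fall of GADD45A, a treated 24 h level can lie near an untreated 4 h level: the middle vincristine dose at 24 h averaged 12.44, as did the median untreated array at 4 h.

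GADD45A rose with formaldehyde from 100 µM upward, and most at 200 µM after 24 h. The 4 h arrays of experiments 1, 2 and 3 read 12.43, 12.35 and 12.41 untreated, 12.51, 12.49 and 12.61 at 50 µM, 13.08, 12.91 and 13.06 at 100 µM, and 13.03, 13.12 and 13.17 at 200 µM. Every treated array lay above every untreated one, and the arrays of 100 and 200 µM overlapped. The changes were 0.14 ± 0.05 (not called, limma adjusted p = 0.296; called at 0.0244 with all arrays in one fit), 0.62 ± 0.05 (7.29e-09) and 0.71 ± 0.05 (3.34e-10), and the step from 100 to 200 µM of 0.09 ± 0.05 was not called (adjusted p = 0.199, 95% interval -0.02 to 0.20).
At 24 h GADD45A read 11.37, 11.43 and 11.49 untreated, 11.53, 11.54 and 11.56 at 50 µM, 11.96, 12.01 and 12.03 at 100 µM, and 13.76, 13.67 and 13.77 at 200 µM. The 200 µM arrays stood far above the rest, and 50 µM lay just above untreated. The changes were 0.11 ± 0.05 (not called), 0.57 ± 0.05 (limma adjusted p = 1.13e-06) and 2.30 ± 0.05 (3.4e-18), the last a 4.94-fold rise.

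GADD45B also rose with formaldehyde, and at 100 and 200 µM its change was larger at 4 h than at 24 h. At 4 h it read 9.72, 10.04 and 9.97 untreated, 9.99, 10.09 and 10.05 at 50 µM, 10.49, 10.25 and 10.46 at 100 µM, and 10.92, 11.00 and 10.98 at 200 µM. The 100 and 200 µM arrays were above all untreated arrays and did not overlap each other. The changes were 0.13 ± 0.08 (not called), 0.48 ± 0.08 (limma adjusted p = 7.13e-05) and 1.05 ± 0.08 (8.28e-10), a 2.07-fold rise at 200 µM.
At 24 h GADD45B read 9.94, 10.09 and 9.99 untreated, 9.99, 9.97 and 9.98 at 100 µM, and 10.65, 10.34 and 10.67 at 200 µM, and only the 200 µM arrays stood clear of untreated. Its change was -0.03 ± 0.08 at 100 µM (not called) and 0.55 ± 0.08 at 200 µM (limma adjusted p = 1.09e-05). The change at 50 µM, 0.10 ± 0.08, was not called.
The share of tested genes called was 0.82%, 40.7% and 53.8% at 4 h and 0%, 3.81% and 47.7% at 24 h for the 3 rising formaldehyde doses, so that at 200 µM a call was common among all genes. Between 50 and 200 µM 46.3% were called at 4 h and 46.3% at 24 h, where GADD45A differed by 0.57 and 2.19 and GADD45B by 0.92 and 0.44. Between 100 and 200 µM 34.9% were called at 4 h and 42.8% at 24 h, where GADD45B differed by 0.56 and 0.58 and GADD45A at 24 h by 1.73. One untreated 4 h formaldehyde array had a 3′ minus 5′ ACTB value of 0.680, against a lowest of 0.299 in its group. Without the untreated array of experiment 3 the 200 µM changes at 4 h were 0.72 for GADD45A and 1.08 for GADD45B.

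**Figure D2:**
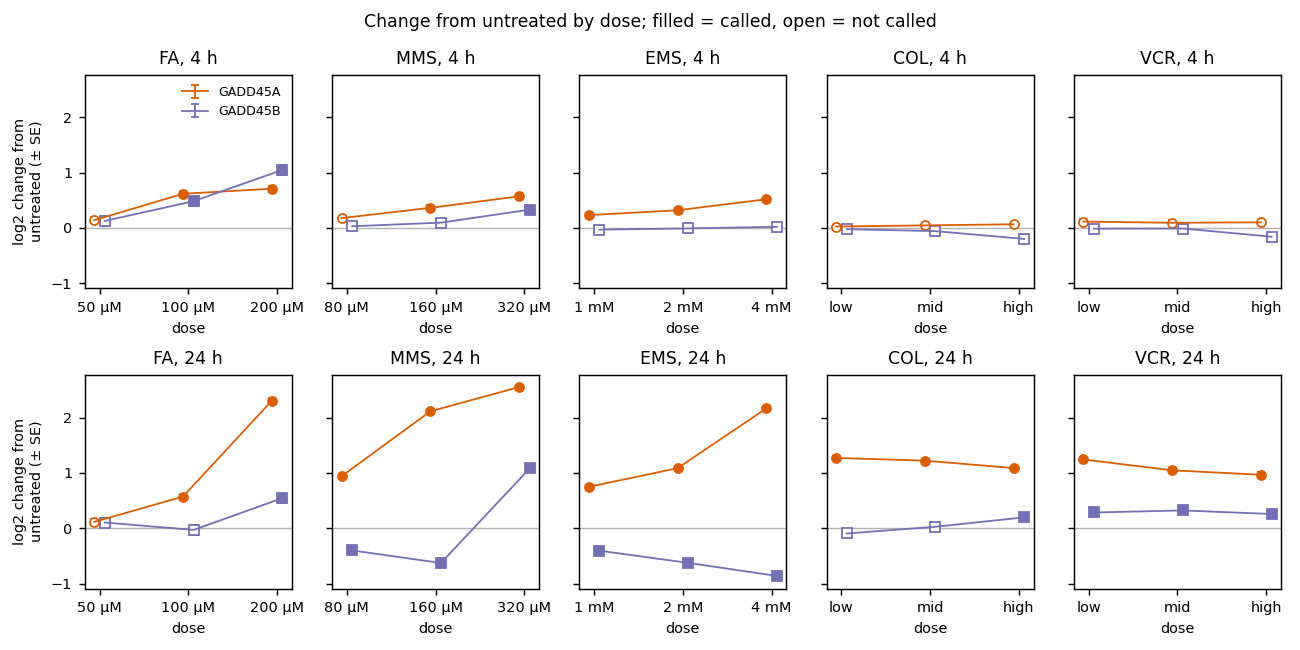
Change from untreated of GADD45A and GADD45B (y axis, log2, ± SE of the limma fit, 3 arrays a group) is plotted against dose (x axis) for each chemical at 4 h and 24 h. Filled points were called and open points were not; at 24 h GADD45A is above 0 throughout while GADD45B falls with EMS and turns from -0.63 to 1.08 between 160 and 320 µM MMS.

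GADD45A rose with MMS and more so after 24 h. At 4 h it read 12.56, 12.50 and 12.60 untreated and 13.15, 13.10 and 13.13 at 320 µM, with no overlap. The changes for the rising doses were 0.18 ± 0.05 (not called, limma adjusted p = 0.0543; 0.0251 with experiment as a block), 0.36 ± 0.05 and 0.57 ± 0.05. The change at 80 µM was also called with the mean of probe sets (0.0497), quantile normalization repeated (0.0227) and all arrays in one fit (0.00267). It was not called when any 1 experiment was left out. At 24 h it read 11.66, 11.66 and 11.67 untreated, 12.65, 12.62 and 12.54 at 80 µM, 13.86, 13.77 and 13.70 at 160 µM, and 14.23, 14.17 and 14.25 at 320 µM. The groups did not overlap and were ordered by dose, with changes of 0.94 ± 0.05, 2.11 ± 0.05 and 2.55 ± 0.05 (limma adjusted p = 4.29e-20), and the last was 5.87-fold. This was the highest level of GADD45A in the series, and the next group in order, 4 mM EMS at 24 h, did not overlap it.

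GADD45B moved in both directions with MMS at 24 h. It read 9.85, 10.09 and 9.85 untreated, 9.45, 9.61 and 9.53 at 80 µM, 9.31, 9.31 and 9.28 at 160 µM, and 11.01, 10.94 and 11.09 at 320 µM. The lower doses lay below and the highest dose above all untreated arrays. The changes were -0.40 ± 0.07 (limma adjusted p = 0.000278), -0.63 ± 0.07 (3.05e-07) and 1.08 ± 0.07 (2.8e-11), a 2.12-fold rise at 320 µM. The step from 160 to 320 µM, tested after its values were seen, was 1.71 ± 0.07 for GADD45B (limma adjusted p = 5.16e-13) and 0.44 ± 0.05 for GADD45A, where 40% of tested genes were called.
At 4 h GADD45B read 10.02, 10.17 and 10.24 untreated and 10.46, 10.51 and 10.45 at 320 µM, which did not overlap. The changes for the rising doses were 0.03 ± 0.07 and 0.10 ± 0.07 (not called) and 0.33 ± 0.07 (limma adjusted p = 0.00132).
The shares of tested genes called with MMS were 1.6%, 13.5% and 28.6% at 4 h and 28.5%, 47.3% and 58.5% at 24 h. Between 80 and 320 µM 17.4% were called at 4 h and 52.4% at 24 h, where GADD45B differed by 0.30 and 1.48 and GADD45A by 0.39 and 1.61. The GADD45B step at 4 h was 0.226 and not called without experiment 1 (adjusted p = 0.146). The 3′ minus 5′ signal of ACTB was 0.941 ± 0.079 (SD, n = 3) in untreated MMS arrays at 24 h and 1.06, 1.28 and 1.88 ± 0.26 at the rising doses. At 200 µM formaldehyde and 24 h it was 0.768 ± 0.07 against 0.481 ± 0.024 untreated. Its part in these changes was not tested.

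With EMS, GADD45A rose and GADD45B fell. GADD45A read 12.45, 12.46 and 12.47 untreated at 4 h and 12.999, 12.96 and 12.97 at 4 mM, and 11.80, 11.68 and 11.68 untreated at 24 h and 13.95, 13.86 and 13.84 at 4 mM. No treated array overlapped an untreated one. The changes at 1, 2 and 4 mM were 0.23 ± 0.04 (limma adjusted p = 0.0124), 0.32 ± 0.04 and 0.52 ± 0.04 at 4 h, and 0.75 ± 0.04, 1.09 ± 0.04 and 2.17 ± 0.04 (8.13e-20) at 24 h, the last 4.49-fold.
GADD45B at 24 h read 9.999, 10.20 and 10.09 untreated, 9.69, 9.75 and 9.63 at 1 mM, 9.42, 9.48 and 9.51 at 2 mM, and 9.27, 9.28 and 9.16 at 4 mM. The 4 groups did not overlap and stepped down with dose, by -0.41 ± 0.05, -0.63 ± 0.05 and -0.86 ± 0.05 (limma adjusted p = 1.18e-11), so that 4 mM was 1.82-fold below untreated. At 4 h its changes of -0.03, -0.01 and 0.02 (each ± 0.05) were not called.
The shares of tested genes called with EMS were 0.143%, 1.06% and 9.6% at 4 h and 24.3%, 34.6% and 51.5% at 24 h. Between 1 and 4 mM 2.4% were called at 4 h and 43.7% at 24 h, where GADD45A differed by 0.29 and 1.42 and GADD45B by 0.05 (not called) and -0.46. The 3′ minus 5′ ACTB signal at 24 h also stepped with EMS dose, from 0.521 untreated to 0.535, 0.572 and 0.664, and its part in these changes was not tested. At 1 mM and 4 h the GADD45A call was lost when any 1 experiment was left out (adjusted p 0.285 to 0.819), and at 2 mM and 4 h without experiment 2 (0.0711), as was the GADD45A step at 4 h (0.0568).

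GADD45A rose with both tubulin-binding agents at 24 h and was not called at 4 h. At 24 h it read 11.43, 11.44 and 11.51 in the untreated colcemid arrays and 12.74, 12.78 and 12.68, 12.67, 12.71 and 12.67, and 12.56, 12.58 and 12.52 at the rising doses. Treated arrays all lay above untreated ones, and higher doses did not have higher values. The changes were 1.27 ± 0.04, 1.22 ± 0.04 and 1.09 ± 0.04 (limma adjusted p = 2.52e-14).
For vincristine the untreated arrays read 11.41, 11.41 and 11.35, and the treated ones 12.60, 12.70 and 12.60, 12.45, 12.48 and 12.39, and 12.31, 12.38 and 12.39. These too stood apart from untreated and fell with dose, with changes of 1.24 ± 0.05, 1.05 ± 0.05 and 0.97 ± 0.05 (limma adjusted p = 1.3e-12). From the lowest to the highest dose GADD45A fell by 0.18 with colcemid (adjusted p = 0.00198) and by 0.28 with vincristine (0.000411), where 13.7% and 13.6% of tested genes were called. The colcemid step was not called without experiment 1 (adjusted p = 0.075) or 2 (0.0526), nor the vincristine step without experiment 1 (0.0636).
At 4 h GADD45A changed by 0.03, 0.05 and 0.07 with colcemid and by 0.12, 0.09 and 0.10 with vincristine, none called. The shares of tested genes called at 4 h were 0%, 0.0642% and 0.913% with colcemid and 0%, 0.00713% and 0.25% with vincristine, and at 24 h 37.3%, 37.7% and 36.4%, and 37.4%, 36.9% and 35.7%. Between lowest and highest dose at 4 h 0.62% were called with colcemid and 0.00713% with vincristine.

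GADD45B changed less with these agents. At 24 h it read 9.87, 9.99 and 9.83 in untreated colcemid arrays and 10.07, 10.20 and 10.01 at the highest dose, which did not overlap. The changes were -0.09 ± 0.06 and 0.03 ± 0.06 (not called) and 0.20 ± 0.06 (limma adjusted p = 0.00696), and the last was not called without experiment 1 (0.193, adjusted p = 0.0953). Between lowest and highest dose it rose by 0.29 (adjusted p = 0.00108, and 0.0779 without experiment 1).
With vincristine GADD45B read 9.77, 9.94 and 9.91 untreated and 10.08, 10.25 and 10.15, 10.22, 10.23 and 10.14, and 10.19, 10.15 and 10.06 at the rising doses, all above untreated. The changes of 0.29, 0.32 and 0.26 (each ± 0.06) were called (limma adjusted p = 0.00051, 0.000149 and 0.00133), and the last was not without experiment 1 (0.178, adjusted p = 0.0979). At 4 h no dose was called, and at the highest dose the change was -0.20 with colcemid (adjusted p = 0.113; 0.00826 with experiment as a block) and -0.16 with vincristine. With that block the step from the lowest to the highest dose of colcemid at 4 h, -0.18, was called too (0.027 against 0.272).

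At matched labelled doses and times, colcemid and vincristine were compared in 6 pairs. For GADD45A none was called. The differences at 24 h, colcemid minus vincristine, were 0.03 (95% interval -0.09 to 0.14), 0.17 (0.06 to 0.29; adjusted p = 0.0561, and 0.0402 with experiment as a block) and 0.12 (0.01 to 0.23) for the rising doses. The middle-dose difference was also called with quantile normalization repeated (limma adjusted p = 0.0184) and all arrays in one fit (0.0487), but not when any 1 experiment was left out. For GADD45B the differences at 24 h were -0.38 ± 0.08 (limma adjusted p = 0.00944), -0.30 ± 0.08 (0.0174) and -0.06 (interval -0.22 to 0.10, not called), and the called differences were lost when any 1 experiment was left out. At 4 h no difference of either gene was called. The shares of tested genes called were 0%, 0% and 0.057% at 4 h and 0.834%, 6.14% and 2.02% at 24 h.

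Over the doses used, the means of the alkylating agents differed from those of the tubulin-binding agents in both genes. Averaged over the 3 doses, GADD45A changed by 0.36 with MMS and EMS and 0.07 with colcemid and vincristine at 4 h, and by 1.60 and 1.14 at 24 h. The differences were 0.29 ± 0.03 (limma adjusted p = 1.2e-11) and 0.46 ± 0.03 (9.15e-22). GADD45B changed by -0.31 and 0.17 at 24 h, a difference of -0.47 ± 0.05 (1.89e-13), but the mean for MMS alone was 0.02 and for EMS -0.63, so the alkylating agents were not alike. At 4 h GADD45B differed by 0.15 ± 0.05 (adjusted p = 0.0219), a call lost without any 1 experiment (0.134 to 0.173). In these comparisons 17.3% of tested genes were called at 4 h and 50.9% at 24 h. MMS and EMS had no shared dose and are given only side by side. The p-values of the class differences measure the spread between arrays and not between chemicals, so they do not speak for the classes in general.

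The order of levels put 4 h GADD45B highest with 200 µM formaldehyde (10.96), clear of 320 µM MMS (10.47). At 24 h it was highest with 320 µM MMS (11.01) and next with 200 µM formaldehyde (10.55), and lowest with 4 mM EMS (9.23), below 160 µM MMS (9.30). For GADD45A at 24 h the top was 320 µM MMS (14.21), followed by 4 mM EMS (13.89), 160 µM MMS (13.78) and 200 µM formaldehyde (13.73), the latter 3 of which overlapped a neighbour. Levels also carry the set's own untreated mean, which at 24 h was 11.66 for MMS, 11.72 for EMS and 11.43 for formaldehyde. As a change from untreated, 200 µM formaldehyde was the largest of these latter 3. Of the 19 neighbouring pairs in each order, 9 overlapped for GADD45A at 24 h and 16 at 4 h, and 14 and 18 for GADD45B.

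The times differed for most doses. Of the 15 tests of the 24 h change minus the 4 h change, GADD45A had a larger change at 24 h in 13 and was not called in 2, which were 50 and 100 µM formaldehyde (-0.03 and -0.05). Untreated GADD45A averaged 12.45 at 4 h and 11.53 at 24 h, so a larger change was not always a higher treated level. The treated mean went from 13.13 to 14.21 at 320 µM MMS, and also rose at 160 µM MMS, 4 mM EMS and 200 µM formaldehyde. It went from 12.51 to 12.55 with the highest dose of colcemid and from 12.49 to 12.36 with that of vincristine. At the lowest and middle doses of colcemid it rose from 12.47 to 12.735 and from 12.49 to 12.69, without overlap. With the lowest dose of vincristine it rose from 12.50 to 12.64, without overlap, and with the middle dose it went from 12.48 to 12.44. At 80 µM MMS it went from 12.73 to 12.60, and at 1 mM EMS from 12.69 to 12.47. The signed change of GADD45B was higher at 24 h in 5, lower in 7 and not called in 3; with 80 and 160 µM MMS and all EMS doses the lower value was a fall at 24 h. For GADD45A the difference reached 1.98 ± 0.06 at 320 µM MMS. For GADD45B it was -0.50 ± 0.12 at 200 µM formaldehyde and -0.88 ± 0.07 at 4 mM EMS. Read by its dimmest probe set these were -0.21 and -0.36 and were not called (limma adjusted p = 0.168 and 0.0657), nor were those at 320 µM MMS (0.20, 0.194) and 100 µM formaldehyde (-0.14, 0.462). In these tests 0.0357%, 26.6% and 53.3% of tested genes were called for formaldehyde, 15.9%, 33.7% and 45.2% for MMS, 10.8%, 20.2% and 38.3% for EMS, 25.2%, 26.4% and 22.5% for colcemid, and 25.3%, 23.9% and 22.4% for vincristine.

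At the highest dose the signed change of GADD45A lay above that of GADD45B, read by its brightest probe set, on the same arrays, except with formaldehyde at 4 h. Over all 15 experiments at 24 h the GADD45A change minus the GADD45B change averaged 1.57 (SD 0.862) and was above 0 in 15, with an exact two-sided sign-flip p of 6.1e-05, the smallest possible, and an adjusted value of 0.000366 over 6 tests. At 4 h the mean was 0.185 (SD 0.304, above 0 in 12; exact permutation p = 0.0364, adjusted 0.0364), and its adjusted p was 0.0762, 0.146 and 0.133 without experiment 1, 2 or 3 and 0.054 with quantile normalization repeated. For MMS and EMS it was 0.37 at 4 h and 2.25 at 24 h, and for colcemid and vincristine 0.262 and 0.801, each above 0 in 6 of 6 with an exact permutation p of 0.0312, the smallest that 6 experiments allow. The experiments counted here are repeats within each chemical, and signs were flipped without regard to chemical. These p-values therefore speak for the repeats and not for chemicals in general. With colcemid and vincristine at 4 h the means were 0.0843 for GADD45A and -0.178 for GADD45B, so there the gap lay mostly in lower GADD45B values. Formaldehyde at 4 h went the other way, with a mean of -0.339 (SD 0.215, n = 3), and at 24 h was 1.76 (SD 0.203, n = 3), and with 3 experiments no test was made.

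**Figure D3:**
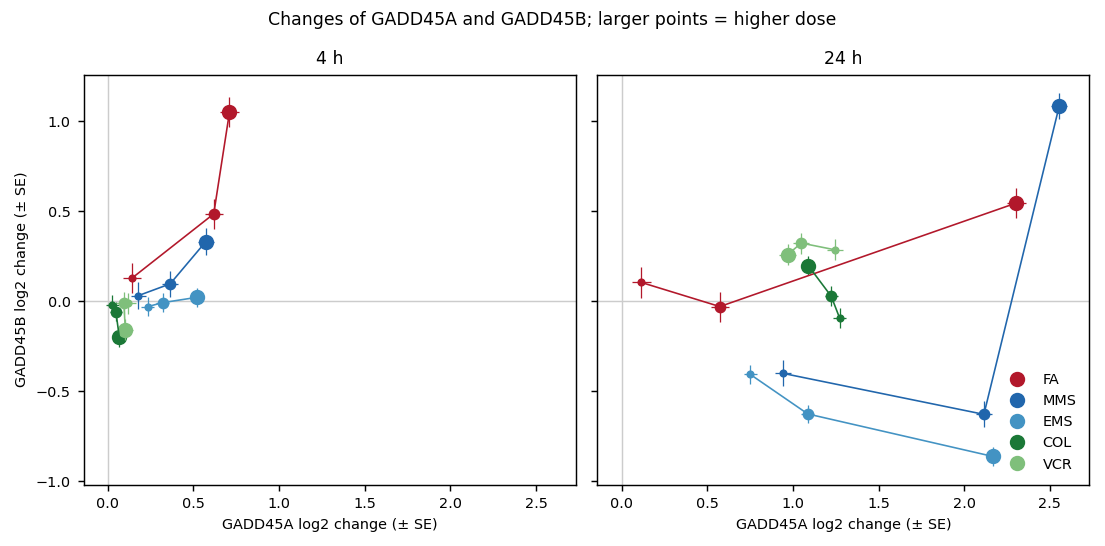
Change of GADD45B (y axis, log2) against change of GADD45A (x axis, log2) for every dose at 4 h and 24 h, with SE bars and lines that join the doses of a chemical; larger points are higher doses. At 4 h formaldehyde and MMS rise in both genes, whereas GADD45B hardly moves with EMS and lies below untreated at the highest doses of colcemid and vincristine. At 24 h EMS falls along the y axis and MMS turns up at 320 µM.

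Across the 15 comparisons at 4 h the changes of GADD45A and GADD45B correlated with Pearson's r of 0.806 and Spearman's rho of 0.811, and across the 15 at 24 h with 0.167 and 0.161. Over all 30 they were 0.0761 and 0.161. The 3 doses of a set and time share untreated arrays, so these values describe the data and have no p. The 4 h value spans chemicals and did not hold within each: with EMS GADD45A rose with dose while GADD45B was not called.

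GADD45B was measured by 4 probe sets, and the other 3 moved the same way in all 14 of its called comparisons. The second brightest correlated with the brightest at r = 0.976 over 120 arrays and was also called in 13 of 14, the third at 0.946 and in 13, and the dimmest (mean 7.11) at 0.842 and in 8. With the dimmest the fall at 4 mM EMS and 24 h was -0.26 ± 0.11 and was not called (limma adjusted p = 0.0534), and those at 1 and 2 mM EMS (-0.08 and -0.20) were not called either. Nor did it call the rises at 100 µM formaldehyde and 4 h (0.11, adjusted p = 0.375) and at the lowest (0.17, 0.0647) and highest (0.11, 0.231) doses of vincristine at 24 h.

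**Figure D4:**
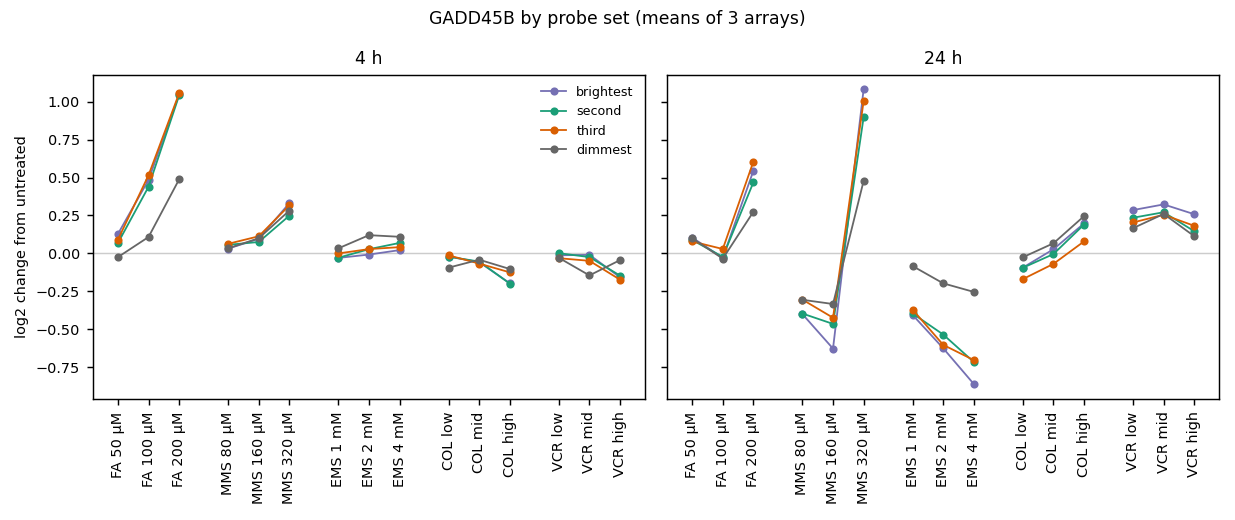
Change of GADD45B from untreated (y axis, log2, means of 3 arrays) by chemical and dose (x axis) at 4 h and 24 h, as read by each of its 4 probe sets, named by brightness. The lines mostly share direction but not size. The dimmest is closest to 0 in formaldehyde at 4 h, in EMS at 24 h, and at the highest doses of MMS and formaldehyde at 24 h.

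GADD45G stayed below the limit for dim genes on all arrays and was not in the filtered test. The formaldehyde arrays at 4 h read 5.40, 5.48 and 5.60 untreated and 5.85, 6.01 and 5.70 at 200 µM. The treated arrays lay above the untreated ones but still below the limit. Without the filter this was the only call of 30, 0.36 ± 0.11 (limma adjusted p = 0.0133, with 39.6% of 19775 genes called), and 3 had an unadjusted p under 0.05. Its changes ran from -0.21 to 0.36.

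Genes with changes most like those of GADD45A over the 30 comparisons were CSTA (r = 0.981), which encodes a cysteine protease inhibitor, CCNK (0.98), a cyclin of transcription kinases, RPS19 (0.977), a ribosomal protein, LCE1B (0.976), a cornified envelope protein, and LINC01588 (0.975). RPS19 moved little, from -0.01 to 0.22, whereas LCE1B reached 4.55. For GADD45B they were MCUR1 (0.888), a regulator of mitochondrial calcium uptake, GET3 (0.874), which targets tail-anchored proteins to membranes, TARBP2 (0.865), a partner of Dicer, POLR2C (0.861), a subunit of RNA polymerase II, and SSNA1 (0.857). Their own changes were small, the largest being 0.49 for GET3. These too are descriptions over comparisons that share untreated arrays.

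The other genes named for growth arrest and DNA damage, DDIT3 (CHOP, a transcription factor of the integrated stress response) and PPP1R15A (GADD34, which directs dephosphorylation of eIF2alpha), are not relatives in sequence. Both rose at the highest dose of each chemical at 24 h, and at 4 h with formaldehyde, MMS and EMS, and PPP1R15A alone also with colcemid at 4 h (0.61 ± 0.06, limma adjusted p = 9.22e-06). The shares of all tested genes called at these doses were 47.7% (formaldehyde), 58.5% (MMS), 51.5% (EMS), 36.4% (colcemid) and 35.7% (vincristine) at 24 h. At 4 h they were 53.8%, 28.6% and 9.6% with formaldehyde, MMS and EMS, and 0.913% with colcemid. The largest rises were 3.14 ± 0.07 for DDIT3 with 320 µM MMS at 24 h and 1.68 ± 0.07 for PPP1R15A with 200 µM formaldehyde at 4 h.

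Among 15 tested of 19 listed regulators of GADD45 transcription, 7 rose and 2 fell with 320 µM MMS at 24 h, with a median change of 0.28 against -0.04 for all genes, where 58.5% of all tested genes were called. With 200 µM formaldehyde at 4 h 4 rose and 7 fell (median 0.088, all genes 0.078; 53.8% of all tested genes called). With 4 mM EMS at 24 h 6 rose and 2 fell (median 0.15, all genes -0.015; 51.5%). EGR1, an immediate early factor, rose by 2.73 ± 0.12 and ZNF350, which represses GADD45A together with BRCA1, rose by 1.92 ± 0.11 with 320 µM MMS at 24 h. FOXO1 fell by 2.44 with 200 µM formaldehyde at 4 h, and MYC, a repressor of GADD45A, fell by 1.86 with 320 µM MMS at 24 h.

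Of 7 cell cycle partners, all tested, 3 rose and 4 fell with 320 µM MMS at 24 h (median -0.22, all genes -0.04; 58.5% of all tested genes called), and 4 rose and 1 fell with the highest dose of vincristine at 24 h (median 0.39, all genes -0.00109; 35.7% called). CDKN1A, which encodes the p21 inhibitor, rose by 2.25 ± 0.05 with 320 µM MMS at 24 h. CCNB1, the cyclin of CDK1, fell by 1.45 with 320 µM MMS and rose by 0.64 with the highest dose of vincristine, both at 24 h. CDK1 fell by 1.06 with that vincristine dose.

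Of 9 tested of 11 repair and DNA demethylation partners, 3 rose and 5 fell with 200 µM formaldehyde at 4 h (median -0.14, all genes 0.08; 53.8% of all tested genes called). With 320 µM MMS at 24 h 4 rose and 0 fell (median 0.026, all genes -0.039), where 58.5% of all tested genes were called. TET2 and TET3, which oxidize 5-methylcytosine, changed by -1.85 and -1.69 with that formaldehyde dose. ERCC5 (XPG) and ERCC3 (XPB), both nucleotide excision repair genes, rose by 0.85 and 0.49 with 320 µM MMS at 24 h.

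Of the MAP kinase genes below GADD45, 7 of 11 were tested. With 320 µM MMS at 24 h 3 rose and 1 fell (median 0.12, all genes -0.039; 58.5% of all tested genes called). With the highest dose of colcemid at 24 h 1 rose and 4 fell (median -0.19, all genes -0.00209; 36.4% called). MAP3K4, the kinase that GADD45 proteins bind, fell by 0.86 with 200 µM formaldehyde at 4 h. MAP2K4, a kinase of JNK, fell by 0.71 there and rose by 0.55 with 320 µM MMS at 24 h, and MAPK8, which is JNK1, rose by 0.51 with 200 µM formaldehyde at 24 h.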

How the data were processed

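The authors deposited log2 expression values per probe set, made by RMA per the submitters' processing notes; software, version and joint normalization are not given in the sources used here. All 120 columns were matched to samples by the labels, in 40 groups of 3. Probe sets naming 1 symbol were used (41091 of 54675; 1801 named several, 11721 none, 62 were controls). Each gene was read from its brightest probe set, and 14023 of 19775 genes passed the filter of 6.18 in 3 arrays. Models were fitted with limma 3.58.1 in R 4.3.3 across all tested genes, each chemical's 24 arrays together with 8 group means and no block; the moderated tests were two-sided, with Benjamini-Hochberg adjustment. Python 3.11.15 with numpy 2.4.6, pandas 2.3.3 and matplotlib 3.10.9 made the promoter search and figures. GADD45A and GADD45B changes were compared by exact sign-flip permutation tests on differences paired by experiment.

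The members and the 5 gene lists and 4 marker lists were chosen from general knowledge, with earlier results of these data known. Named genes are the members, the 5 genes most like each, and up to 2 rises and 2 falls of each list at the highest doses. The labels number the arrays of a set as experiments, and these numbers were used as pairs. Deviations of same-numbered arrays correlated above 0 in 29 of 30 comparisons (median 0.285, against -0.141 for other numbers), and every pair was over 0.1 in 19; the linear models had no block. On simulated data for 14023 genes, 88% of changes of 0.5 and 100% of changes of 1 were recovered for 200 µM formaldehyde at 4 h, and 86% and 100% for 4 mM EMS at 24 h. The simulation changed 100 genes at each size and gave every array independent noise. In the data 53.8% and 51.5% of tested genes were called in these comparisons and same-numbered arrays correlated, so recovery there may differ. Other settings tried were a block for experiment, testing dim genes too, averaging probe sets, repeating quantile normalization, a single fit of all arrays, omitting each experiment, the other GADD45B probe sets and the middle dose. The step from 160 to 320 µM MMS and formaldehyde without 1 untreated array were added after seeing the data. Upstream windows come from the RefSeq table of GRCh38.p14.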

Additional observations from a re-analysis of the deposited data

Results flagged for a closer look

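These results differed between groups under the same contrast, by a test of the difference itself with limma, and no explanation is offered. The 24 h change of GADD45A exceeded its 4 h change by 1.59 at 200 µM formaldehyde, by 0.762, 1.75 and 1.98 at the rising MMS doses, by 0.517, 0.767 and 1.65 at the rising EMS doses, by 1.25, 1.18 and 1.02 with colcemid and by 1.13, 0.954 and 0.866 with vincristine. Untreated GADD45A was lower at 24 h than at 4 h, so a larger change was not always a higher treated level. For GADD45B the 24 h change minus the 4 h change was -0.515 at 100 µM and -0.504 at 200 µM formaldehyde, -0.432, -0.725 and 0.751 at the rising MMS doses, and -0.376, -0.618 and -0.883 at the rising EMS doses. It was 0.395 at the highest dose of colcemid, and 0.298, 0.333 and 0.416 at the rising doses of vincristine. At 24 h the change of GADD45B with colcemid minus that with vincristine was -0.38 at the lowest dose and -0.295 at the middle dose. The differences between colcemid and vincristine were not called when any 1 experiment was left out, nor was the GADD45B time difference at 80 µM MMS. Of the other GADD45B time differences, that at 100 µM formaldehyde and those of all vincristine doses were not called without experiment 1, those of the lowest and middle vincristine doses without experiment 2, and that at 1 mM EMS without experiment 3. With the dimmest GADD45B probe set, the differences between colcemid and vincristine and the time differences were not called, except those at 160 µM MMS, the highest dose of colcemid and the middle dose of vincristine. The time difference at the highest dose of colcemid was not called with the third brightest probe set (0.204, limma adjusted p = 0.204).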

How the results depend on the processing

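No called result changed sign under any alternative run. With experiment as a replicate block, 22 GADD45A comparisons were higher in place of 21 and 6 GADD45B comparisons lower in place of 5: GADD45B fell with the highest dose of colcemid at 4 h (-0.198, limma adjusted p = 0.00826), GADD45A rose with 80 µM MMS at 4 h (0.178), and the colcemid step of GADD45B at 4 h (-0.176) and the middle-dose difference of GADD45A at 24 h (0.175) were called. The block changed no other call of these genes. With quantile normalization repeated that colcemid change was -0.211 (adjusted p = 0.011), and the GADD45A minus GADD45B difference over 15 experiments at 4 h was 0.18 (exact permutation, adjusted p = 0.054). That setting also called the colcemid step of GADD45B at 4 h, the rise of GADD45A with 80 µM MMS at 4 h and its middle-dose difference at 24 h. A single fit of all arrays called that rise, that difference and the rise of GADD45A with 50 µM formaldehyde at 4 h. The GADD45B difference between untreated times was called with the mean of probe sets (-0.0844), the second probe set (-0.0786) and the third (-0.147). Among results at the highest doses and the class differences, those no longer called by other GADD45B probe sets were the highest dose of vincristine at 24 h (0.146 with the second probe set, 0.113 with the dimmest), the highest dose of colcemid at 24 h (0.0788 with the third), 4 mM EMS at 24 h (-0.255) and the class difference at 4 h (0.189), both with the dimmest, which left 2 lower GADD45B calls and did not call 17 further GADD45B results at other doses, steps or time differences, against 1 for the third. At the middle dose the colcemid and vincristine difference between the genes at 4 h was 0.104 (exact permutation, adjusted p = 0.0625).

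Leaving out each experiment, GADD45B ranged from 0.19 to 0.209 with the highest dose of colcemid at 24 h, from 0.178 to 0.313 with that of vincristine, and from 0.134 to 0.173 in the class difference at 4 h. The GADD45A minus GADD45B differences ranged from 0.171 to 0.208 over all experiments at 4 h (not called without any 1 of the 3), 0.362 to 0.377 and 2.18 to 2.30 for MMS and EMS at 4 h and 24 h, and 0.25 to 0.272 and 0.771 to 0.851 for colcemid and vincristine. With 4 experiments left in the last 4, the smallest exact permutation p is 0.125, so these could not pass. Signal over background limits GADD45G, and the number of arrays limits small changes.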
